A study of Mus musculus with 11 samples.

Results

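The genes described here encode the epidermal growth factor (EGF) family of ligands and the receptors they act on. They were 7 ligand genes (Hbegf, Ereg, Areg, Tgfa, Egf, Btc and Epgn) and 3 receptor genes (Egfr, Erbb2 and Erbb3), chosen by name as 10 of the 43346 genes in the count table of a mouse colon RNA-seq experiment. All of them except Epgn had enough reads to be tested.

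Colons were compared between 5 germ-free mice and 6 humanized mice, all male Swiss Webster mice of 8–10 weeks housed singly in isolators. Humanized mice were germ-free mice given 300 μL of a human stool suspension by gavage at 4–5 weeks of age and left for 4–5 weeks while the microbiota established. One donor supplied all the stool, so the humanized group models 1 human microbiota in 1 sex. Mice of the germ-free group carried no microbiota, and the labels name no engineered allele in either group.

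EGF family ligands are made as membrane-anchored precursors and are released by metalloproteases such as ADAM17. A released ligand brings ErbB receptors together in pairs, and the pairs signal through the RAS-ERK and PI3K pathways, which in the gut lining drive proliferation, survival, migration and repair. ErbB2 has no ligand of its own and ErbB3 has little kinase activity, so both depend on partners, and inhibitors such as MIG6, the product of Errfi1, restrain the active receptors.

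Levels are given as RPKM (reads scaled to gene length and to library size), computed from the deposited counts with scaling by the trimmed mean of M-values (TMM), and means are followed by the SD. LFC is the log2 fold change of humanized over germ-free mice, given with its standard error (SE). Each FDR is a Benjamini-Hochberg adjusted p from edgeR's exact test over 19863 genes, and genes with an FDR below 0.01 were called changed. Libraries held 49097005 to 64148538 counts in germ-free mice and 39125290 to 54219854 in humanized mice. Epithelial keratins and the intestinal factors Cdx1 and Cdx2 were detected in every library. Humanized mouse 5 stood apart in having the lowest summed RPKM of the smooth muscle, fibroblast, endothelial and enteric neuron markers. LFCs of Hbegf, Ereg, Areg, Erbb2 and Erbb3 are also given without it, while ranges and shares include it. In bulk tissue, fewer cells of a type and less RNA per cell cannot be told apart.

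Of the 9 members tested, 2 ligands fell in humanized mice (Hbegf and Ereg), 1 ligand rose (Areg), and 6 genes, including all 3 receptors, were not called. Over all genes tested, 10.1% were called lower and 9.20% were called higher, 19.3% in either direction. Both members that fell had an LFC below −1, and 6.41% of all genes tested were called with such an LFC. The groups did not overlap for the 3 called members, against 9.73% of all genes for a lower level in every humanized mouse and 8.67% for a higher one. With a list of 9, these counts say nothing particular about the family, and the genes are described singly.

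**Figure D1:**
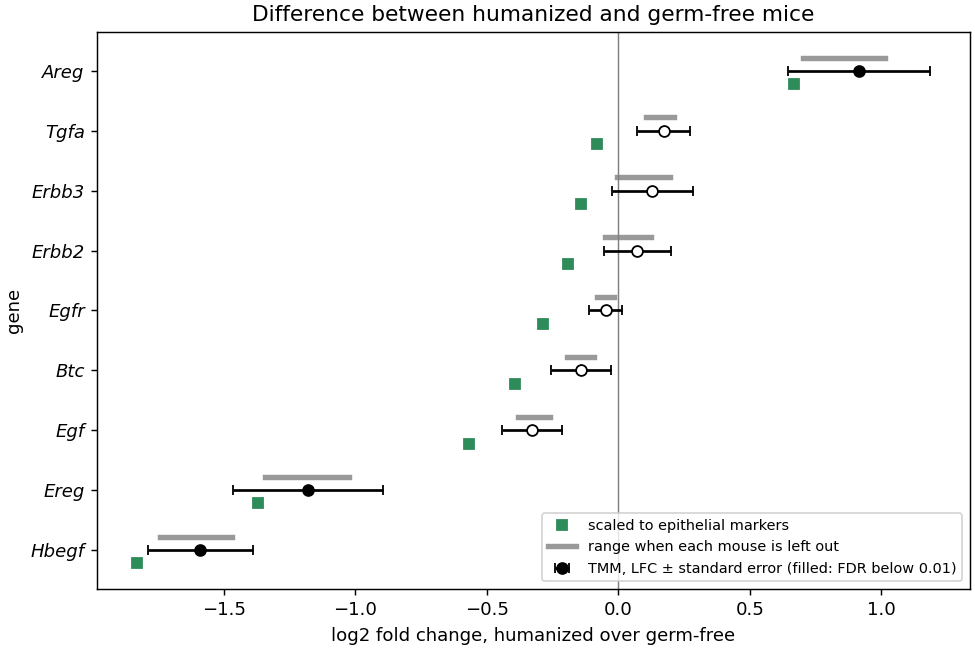
Log2 fold change of humanized over germ-free mice for the 9 members tested, with bars of 1 SE and filled points for an FDR below 0.01. Grey lines give the range of the LFC when each mouse is left out in turn and green squares the LFC after scaling to epithelial markers. Hbegf and Ereg lie below 0, Areg lies above 0, and with TMM scaling the 3 receptors lie within 0.13 of 0, on the other side of it for Erbb2 and Erbb3 under epithelial scaling.

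Hbegf encodes heparin-binding EGF-like growth factor, a ligand of EGFR and ErbB4 that is induced at wounds. It lies on chromosome 18 (ENSMUSG00000024486, mm10 chr18:36504929-36515805). Its level was 15.5, 16.4, 15.7, 16.5 and 21.3 RPKM in germ-free mice 1 to 5. In the 6 humanized mice it ran from 3.21 through a median of 5.47 to 8.45 RPKM. Every germ-free mouse was above every humanized mouse. The means were 17.1 ± 2.40 RPKM (n = 5) and 5.67 ± 1.86 RPKM (n = 6), which made Hbegf 3.01-fold lower in humanized mice (LFC = −1.59, SE 0.20, FDR = 2.88e-12). The call rested on 2033 to 3531 counts per germ-free library and 280 to 1005 per humanized library. Among all tested genes, its level moved from percentile 81.9 in germ-free mice to percentile 57.0 in humanized mice. Without humanized mouse 5 the LFC was −1.66 (FDR = 1.12e-12). EdgeR's quasi-likelihood test, whose fit gave the SE, put the Hbegf FDR at 2.63e-04, far weaker than the exact test.

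Ereg encodes epiregulin, a ligand of EGFR and ErbB4 that is made by both epithelial and stromal cells. It lies on chromosome 5 (ENSMUSG00000029377, chr5:91074617-91093649). Its level was 3.47, 4.86, 4.00, 6.14 and 6.97 RPKM in germ-free mice 1 to 5. In humanized mice it ran from 0.967 through a median of 2.13 to 3.41 RPKM. The groups did not overlap, though the highest humanized mouse came close to the lowest germ-free mouse. The means were 5.09 ± 1.46 and 2.24 ± 0.920 RPKM, 2.26-fold lower in humanized mice (LFC = −1.18, SE 0.29, FDR = 5.98e-04). Humanized mouse 5 had the lowest value, and without it the LFC was −1.02 (FDR = 1.70e-04). EdgeR's quasi-likelihood test gave Ereg an FDR of 0.00969, close to the threshold.

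Markers of smooth muscle, fibroblasts and enteric neurons and glia moved in the same direction as Hbegf and Ereg, while T cell and innate lymphoid cell markers leaned upward (5 of 10 called higher and 2 lower) and macrophage markers were mixed (1 of 10 higher and 1 lower). All 10 smooth muscle markers tested were called lower, and their summed level was 282 to 863 RPKM in germ-free mice and 38.3 to 300.2 RPKM in humanized mice. Of 10 fibroblast markers, 8 were called lower and none higher, with sums of 248 to 403 and 29.2 to 204 RPKM. Of 9 enteric neuron and glia markers, 8 were called lower, with sums of 8.50 to 11.9 and 1.29 to 3.83 RPKM. None of the 9 endothelial markers was called, though all 9 had an LFC below 0. Their sums were 40.3 to 48.5 RPKM in germ-free mice and 4.83 to 38.6 RPKM in humanized mice, without overlap. No marker of these lists was at 0 in any mouse. The part of these cells in the lower Hbegf and Ereg was not tested. Scaled to 11 epithelial markers in place of TMM, which moved the median LFC of all genes from 0.01 to −0.23, Hbegf had an LFC of −1.83 and Ereg of −1.37.

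Areg encodes amphiregulin, an EGFR ligand of lower affinity that is made by epithelium and by several immune cells during repair. It lies next to Ereg (ENSMUSG00000029378, chr5:91139615-91148432). Its level was 1.89, 4.57, 3.17, 4.26 and 4.05 RPKM in germ-free mice 1 to 5. In humanized mice it ran from 4.83 through a median of 5.47 to 11.4 RPKM. All 6 humanized mice were above all 5 germ-free mice, by a small margin between the closest of them. The means were 3.59 ± 1.08 and 6.76 ± 2.54 RPKM, 1.89-fold higher in humanized mice (LFC = 0.92, SE 0.27, FDR = 0.00858). The counts were 143 to 339 and 215 to 649 per library.

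The Areg call was close to the threshold. With humanized mouse 5, the highest, left out, the LFC was 0.70 (FDR = 0.0176), and with germ-free mouse 1, the lowest, left out, it was 0.75 (FDR = 0.0299). Leaving out germ-free mouse 3, 4 or 5 (FDR = 0.0352, 0.0150 and 0.0183) or humanized mouse 1 or 6 (FDR = 0.0103 and 0.0260) also ended the call, always with a higher level in humanized mice. EdgeR's quasi-likelihood test gave an FDR of 0.0240 and DESeq2 an FDR of 0.00339. Epithelial markers also leaned upward, 2 of 11 being called higher and all 11 having an LFC above 0, and their summed level was 4429 to 6032 RPKM in germ-free mice and 5087 to 7063 RPKM in humanized mice. Scaled to those markers, Areg had an LFC of 0.67 (FDR = 0.0336). Of 10 T cell and innate lymphoid cell markers, 5 were called higher and 2 lower, with sums of 8.18 to 11.5 and 11.9 to 22.3 RPKM. The part of either cell type in the higher Areg was not tested.

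**Figure D2:**
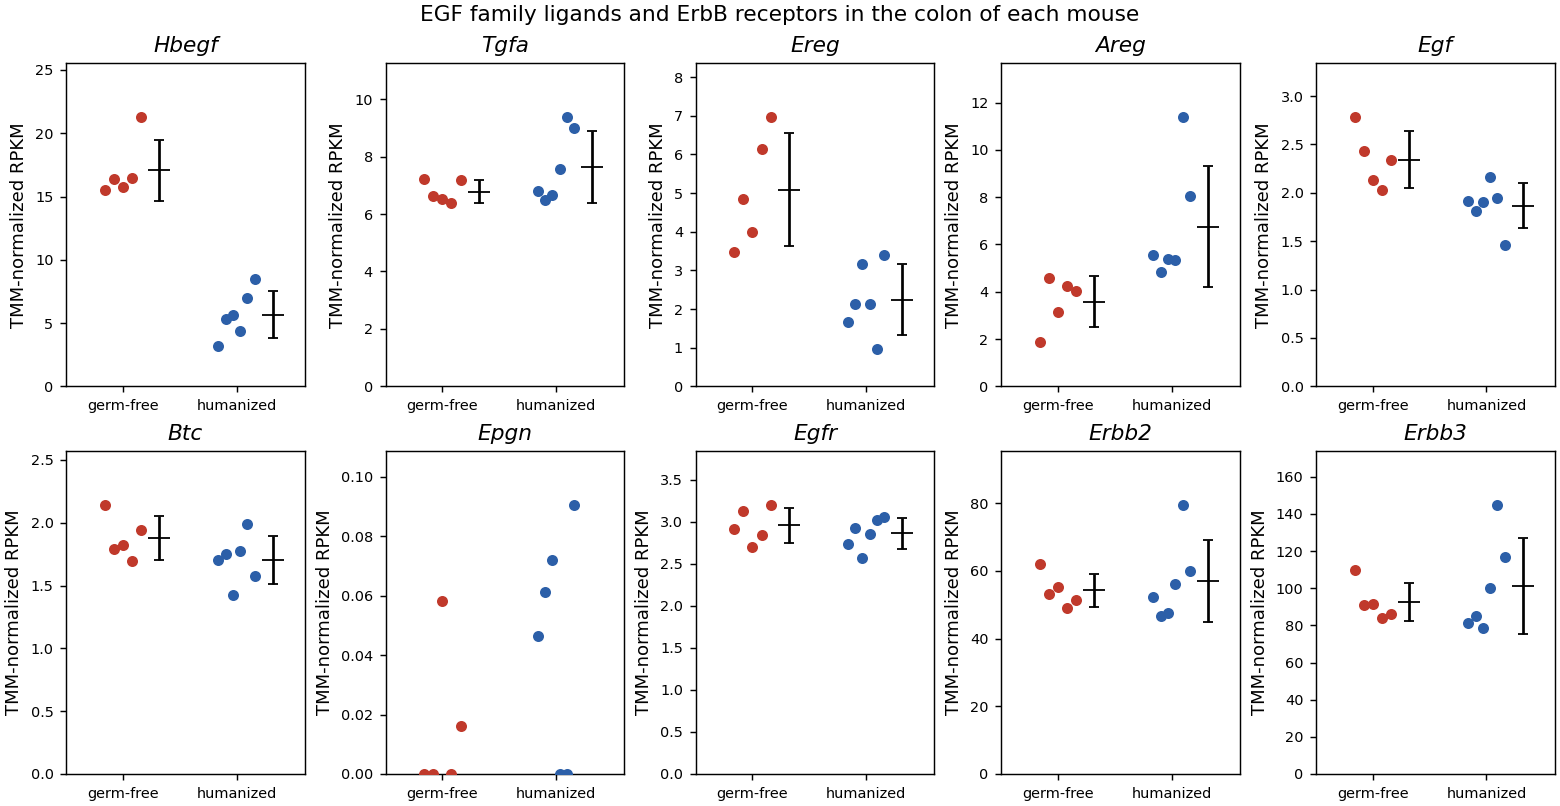
RPKM of the 10 members in each mouse, 1 panel per gene with its own axis from 0, germ-free mice in red and humanized mice in blue, with the group mean and SD beside the points except for Epgn. The groups are apart for Hbegf, Ereg and Areg and overlap for the other genes.

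Areg and Ereg are neighbours, yet they moved in opposite directions. Epgn, Ereg, Areg and Btc lie in that order within 375.5 kb of chromosome 5 (chr5:91027464-91402994). The gap between Ereg and Areg is 46.0 kb and that between Epgn and Ereg 39.4 kb, with no other gene of the table in either, and Areg and Btc are 208.8 kb apart with 1 gene between them. Epgn, Ereg and Areg are read from the forward strand and Btc from the reverse strand. Going along the chromosome, Epgn was too low to test, Ereg fell, Areg rose and Btc (LFC = −0.14) was not called.

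The 250 bases before the start of Areg (chr5:91139349-91139598, forward strand) and of Btc (chr5:91402995-91403244, reverse strand) are from RefSeq on build GRCm38.p6. They are shown because Areg was called and Btc was not, though their responses were not tested against each other. Capitals mark, from left to right in Areg, a cyclic AMP response element (TGACGTCA), a GC box (GGGCGG) and a TATA box (TATAAA).
Areg: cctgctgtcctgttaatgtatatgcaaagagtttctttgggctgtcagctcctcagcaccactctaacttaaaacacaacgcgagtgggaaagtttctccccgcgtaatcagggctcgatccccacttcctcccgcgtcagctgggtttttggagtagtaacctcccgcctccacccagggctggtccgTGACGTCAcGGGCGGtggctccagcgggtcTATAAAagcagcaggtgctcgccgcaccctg
Btc: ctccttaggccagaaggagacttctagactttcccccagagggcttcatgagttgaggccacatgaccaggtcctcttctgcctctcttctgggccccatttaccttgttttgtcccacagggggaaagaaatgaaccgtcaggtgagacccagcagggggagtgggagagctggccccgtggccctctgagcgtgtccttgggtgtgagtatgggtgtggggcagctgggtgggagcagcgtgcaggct
The cyclic AMP response element sits 61 to 54 bases before the Areg start, the GC box 52 to 47 bases before it and the TATA box 31 to 26 bases before it, with no overlap among them. Searched on both strands, these motifs occurred in 1.55%, 32.7% and 12.4% of 32851 windows of the same length. The Btc window held none of the 3, and neither window held TGANTCA (the AP-1 site, in 6.75% of windows) or CACGTG (an E-box, in 6.02%). RefSeq windows were matched for 7 of the 10 members, which left out Ereg, Hbegf and Erbb3. Among the other members matched, the Epgn window held 1 TATA box, the Tgfa window 2 GC boxes and the Egfr window 1 GC box. Matches are descriptions of the letters and do not show binding.

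None of the other 4 ligands was called. Tgfa encodes transforming growth factor alpha, an EGFR ligand made by the surface epithelium. It had 7.21, 6.64, 6.51, 6.38 and 7.18 RPKM in germ-free mice (chr6:86195251-86275639). In humanized mice it ran from 6.47 to 9.38 RPKM with a median of 7.19. The groups overlapped, with means of 6.78 ± 0.386 and 7.64 ± 1.25 RPKM (LFC = 0.17, SE 0.10, FDR = 0.255). Its fold of humanized over germ-free mice had an unadjusted 95% interval of 0.983 to 1.29. The intervals given here and below take the LFC as normally distributed, which makes them somewhat narrow for so few mice.

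Egf encodes the family's founding ligand, known best from kidney and salivary gland. It had 2.78, 2.43, 2.13, 2.03 and 2.34 RPKM in germ-free mice and 1.46 to 2.16 RPKM in humanized mice with a median of 1.92 (chr3:129677575-129755322). Germ-free mice 3 and 4 lay inside the humanized range, and the difference did not pass the threshold (2.34 ± 0.295 against 1.87 ± 0.230 RPKM, LFC = −0.33, SE 0.11, FDR = 0.0690). Scaled by total counts alone, Egf was called lower (LFC = −0.51, FDR = 0.00633). Egf shares exon bases with 2 genes of the opposite strand, and Ereg, Tgfa and Erbb2 with 1 each, and the sources used here do not state whether counting used strand.

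Btc encodes betacellulin, a ligand of EGFR and ErbB4. It had 1.69 to 2.15 RPKM in germ-free mice and 1.42 to 1.99 RPKM in humanized mice (chr5:91357261-91402994). The ranges overlapped over most of their width (1.88 ± 0.174 against 1.70 ± 0.193 RPKM, LFC = −0.14, SE 0.11, FDR = 0.540), with a 95% interval of the fold of 0.776 to 1.06. Epgn, which encodes epigen, an EGFR ligand of low affinity, was near the limit of detection (chr5:91027464-91035215). It had 0, 0, 6, 0 and 2 counts in germ-free mice 1 to 5 and 0 to 8 counts in humanized mice, with reads in 2 of 5 and 4 of 6 mice. A difference in Epgn was not detectable at this depth.

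Read together, the ligand transcripts were weighted differently in the 2 groups. Of the summed RPKM of the 7 ligands in each mouse, Hbegf made up 46.4% ± 1.73 in germ-free mice against 21.5% ± 3.91 in humanized mice. Areg made up 9.69% ± 2.60 and 25.5% ± 4.96, and Tgfa 18.6% ± 2.14 and 29.7% ± 2.22. These 3 shares did not overlap between groups. The share of Ereg was 13.7% ± 2.58 and 8.88% ± 3.39, with overlap. Egf, Btc and Epgn had mean shares of 6.45%, 5.17% and 0.0423% in germ-free mice and 7.48%, 6.74% and 0.179% in humanized mice. Shares add to a fixed total, so a lower Hbegf share raises the others, and the Tgfa share differed although the Tgfa level was not called.

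**Figure D3:**
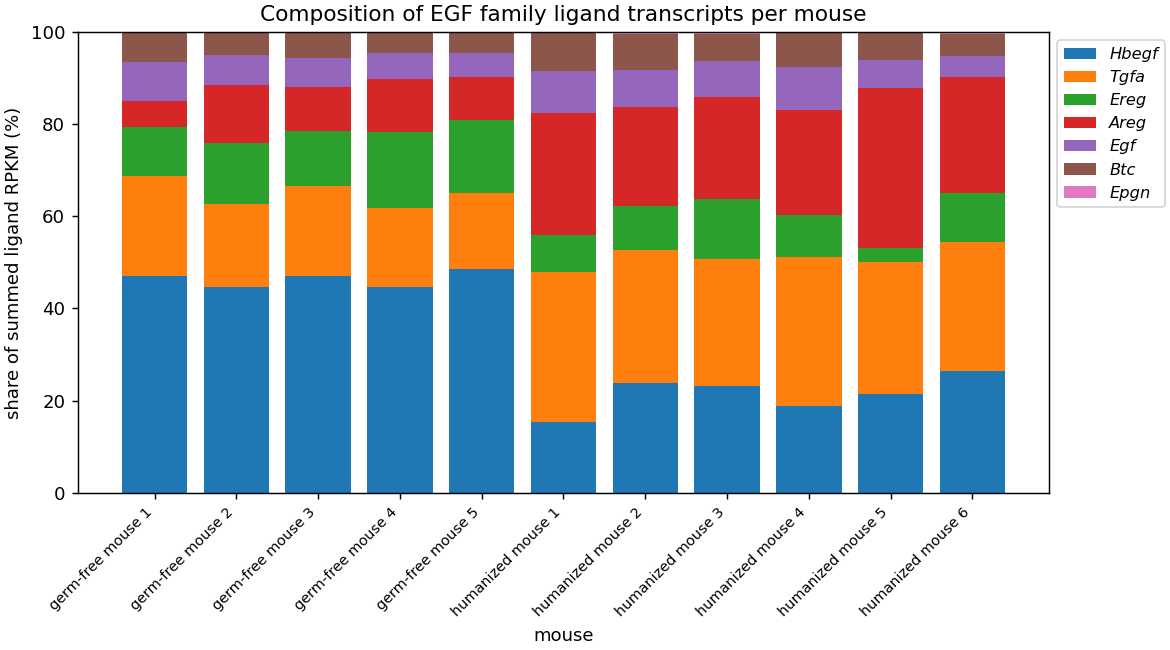
Share of each ligand gene in the summed RPKM of the 7 ligands, in percent, as 1 stacked bar from 0 per mouse. The Hbegf share is 44.6% to 48.6% in germ-free mice but 15.4% to 26.4% in humanized mice, and the Areg share 5.74% to 12.5% but 21.6% to 34.9%.

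By mean RPKM the order of the ligands was Hbegf, Tgfa, Ereg, Areg, Egf, Btc and Epgn in germ-free mice. Only Hbegf and Tgfa, and Btc and Epgn, were neighbours whose ranges did not overlap. In humanized mice the order was Tgfa, Areg, Hbegf, Ereg, Egf, Btc and Epgn, and only Btc and Epgn had separate ranges. Levels per length depend on the length used. With the exon length of GENCODE M21, an alternative chosen after seeing the data, Tgfa (9.01 RPKM) came before Hbegf (8.38 RPKM) in germ-free mice. Btc then came before Egf in both groups, and the Hbegf share was 29.7% and 11.5% and the Areg share 12.4% and 27.4%. The Tgfa share was then 32.2% and 43.0%, and the Egf share 3.55% and 3.44%, which turned the order of its 2 groups.

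Ratios of ligands within a library, chosen after their values were seen and given without a test, do not depend on library scaling. Areg over Ereg was 0.546, 0.941, 0.791, 0.694 and 0.580 in germ-free mice 1 to 5. In humanized mice it ran from 1.69 through a median of 2.43 to 11.8, the highest being mouse 5, and the next highest was 3.37. Ereg was thus the more abundant of the pair in every germ-free mouse and Areg in every humanized mouse. Tgfa over Hbegf was 0.337 to 0.466 in germ-free mice and 1.06 to 2.12 in humanized mice, again without overlap, though its place relative to 1 depends on the gene lengths used. Areg was higher and Ereg lower in every humanized mouse than in any germ-free mouse, so their ratio could not overlap. The Tgfa over Hbegf ratio likewise carries the separation of Hbegf, and neither ratio adds to the single genes. Taken singly, 18.4% of all genes tested did not overlap between groups, and no such share was computed for ratios.

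**Figure D4:**
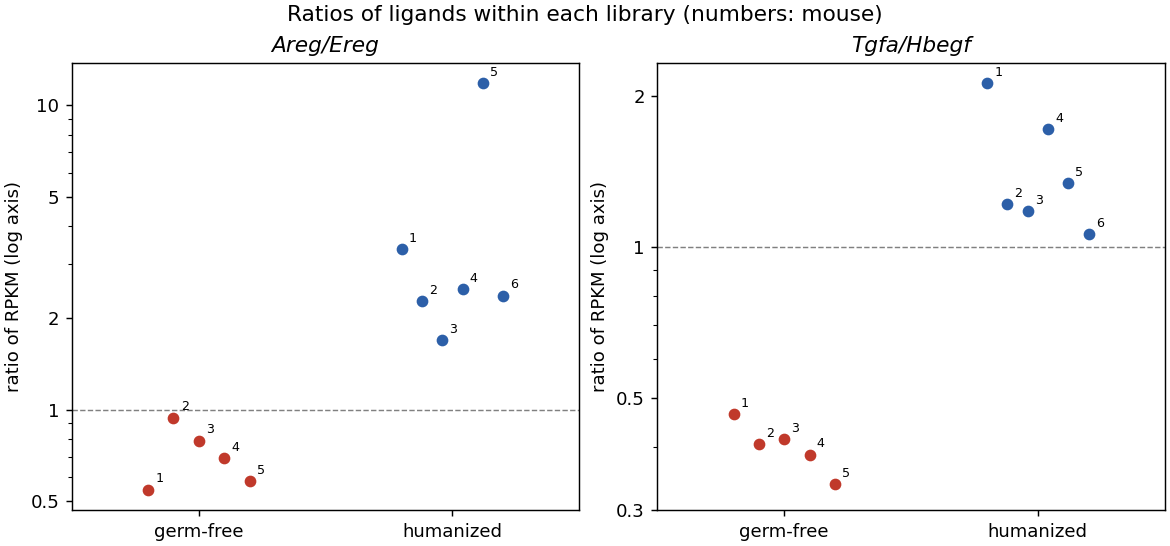
Ratio of RPKM of Areg over Ereg (left) and Tgfa over Hbegf (right) in each mouse on log axes, with the mouse number beside each point and a dashed line at 1. With the deposited gene lengths, all germ-free mice lie below 1 and all humanized mice above 1 in both panels.

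None of the 3 receptors was called. Egfr, the receptor that binds these ligands, had 2.91, 3.13, 2.70, 2.85 and 3.20 RPKM in germ-free mice (chr11:16752203-16918158). The humanized mice ran from 2.57 to 3.05 RPKM with a median of 2.89. The groups overlapped closely (2.96 ± 0.206 against 2.86 ± 0.182 RPKM, LFC = −0.05, SE 0.06, FDR = 0.721), and the 95% interval of the fold was 0.888 to 1.05. Egfr was not called under other scalings either, but its LFC was −0.24 (FDR = 0.0234) with total counts and −0.29 (FDR = 0.0249) scaled to epithelial markers, both below the lower end of that interval. The median LFC of all genes was −0.18 and −0.23 under these scalings.

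Erbb2, the partner receptor without a ligand, had 62.1, 53.3, 55.1, 49.0 and 51.5 RPKM in germ-free mice (chr11:98412470-98437716). The humanized mice ran from 46.6 to 79.6 RPKM with a median of 54.2, mouse 5 being the highest. The means were 54.2 ± 4.95 and 57.0 ± 12.1 RPKM (LFC = 0.07, SE 0.13, FDR = 0.745), with a 95% interval of the fold of 0.884 to 1.25.

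Erbb3, which pairs with Erbb2 and links it to PI3K, had 109.9, 90.7, 91.3, 84.1 and 85.9 RPKM in germ-free mice (chr10:128567523-128589652). The humanized mice ran from 78.5 to 145 RPKM with a median of 92.5, and mouse 5 was again the highest. The means were 92.4 ± 10.2 and 101.1 ± 25.9 RPKM (LFC = 0.13, SE 0.15, FDR = 0.601), with a 95% interval of the fold of 0.888 to 1.35. Without humanized mouse 5, the LFC was −0.05 for Erbb2 and −0.0033 for Erbb3, so neither had a direction that held in every library set.

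Both groups had the same order of receptors, Erbb3 above Erbb2 above Egfr. Erbb3 and Erbb2 stood at percentiles 97.6 and 95.0 of all tested genes in germ-free mice, and at 97.3 and 94.3 in humanized mice, whereas Egfr stood at 43.2 and 43.3. Erbb2 was 18.3-fold above Egfr in germ-free mice and 19.9-fold above it in humanized mice, per length. Erbb2 over Erbb3 was 0.588 ± 0.0151 and 0.570 ± 0.0464, with overlapping groups, and Erbb3 was above Erbb2 in 6 of 6 humanized mice although the ranges of the 2 genes overlapped there. The fourth receptor, Erbb4, also named after its values were seen, had 0 reads in all 11 libraries, which allows at most 0.00661 RPKM (3 counts per library, counting error only).

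Beyond the members, 72 other genes of the pathway were listed by role, and 70 were tested. Of these, 3 were called higher and 15 lower, where 9.20% and 10.1% of all genes were, and the median LFC was −0.04 against 0.01 over all genes. Scaled by total counts, 2 were called higher and 24 lower, beside 773 and 3609 of all 19863 genes. Scaled to epithelial markers, 2 were called higher and 22 lower, beside 548 and 3099 of all genes. Of the 3 neuregulins tested (ErbB3 and ErbB4 ligands, named after their values were seen), none was called. Nrg1 had an LFC of −0.90 (SE 0.40, FDR = 0.0900), Nrg2 of −0.71 (SE 0.28, FDR = 0.0543) and Nrg4 of −0.05.

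Among 9 genes of ligand release, none rose and 1 fell, where 9.20% and 10.1% of all genes were called. Timp3, which encodes an inhibitor of ADAM17, was 10.8 ± 1.27 RPKM in germ-free mice against 5.94 ± 1.34 RPKM in humanized mice (LFC = −0.87, SE 0.14, FDR = 1.84e-07), with no overlap. Adam17, the main sheddase of these ligands, had 6.23 ± 0.469 and 7.26 ± 0.506 RPKM without overlap, with 6.64 RPKM in the highest germ-free mouse and 6.66 RPKM in the lowest humanized mouse, and did not pass the threshold (LFC = 0.22, FDR = 0.0244). Adam10, the sheddase of Egf and Btc, was not called either (LFC = 0.18, FDR = 0.159). Adam17 and Adam10 were named after their values were seen.

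Of 16 adaptor and MAPK cascade genes, 1 rose and 1 fell, beside 19.3% of all genes called in either direction. Map2k1, the kinase MEK1, was 35.6 ± 3.18 RPKM in germ-free mice against 53.2 ± 6.51 RPKM in humanized mice without overlap (LFC = 0.58, SE 0.09, FDR = 2.49e-07). Gab1, a docking protein, had an LFC of −0.35 (SE 0.10, FDR = 0.00900). Of 10 genes of the PI3K, PLC and STAT branch, 1 fell, Plcg1, a phospholipase that EGFR activates (LFC = −0.31, SE 0.07, FDR = 0.00225).

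Genes of negative feedback and receptor turnover, some acting below the receptors, included 8 called lower and 2 called higher of 21. Their median LFC was −0.23, and 10.1% and 9.20% of all genes were called lower and higher. Errfi1, the gene of the inhibitor MIG6, was 40.1 ± 4.79 RPKM in germ-free mice against 23.5 ± 4.02 RPKM in humanized mice (LFC = −0.77, SE 0.12, FDR = 2.13e-08). Spry1, a Sprouty inhibitor of RAS-ERK signalling, was 6.55 ± 0.670 and 3.74 ± 0.538 RPKM (LFC = −0.81, SE 0.11, FDR = 2.71e-08). Spred1, of a related family, was 8.85 ± 0.753 and 6.38 ± 0.662 RPKM (LFC = −0.47, SE 0.08, FDR = 6.27e-06). In none of these 3 did the groups overlap. In the other direction, Cblc, an epithelial ubiquitin ligase of the CBL family, was 23.6 ± 1.15 and 37.5 ± 4.54 RPKM (LFC = 0.67, SE 0.08, FDR = 7.76e-11), and Dusp5, a nuclear ERK phosphatase, was 2.48 ± 0.251 and 4.10 ± 0.869 RPKM (LFC = 0.73, SE 0.15, FDR = 4.10e-04). The other 5 called lower, named after their values were seen, were Spry4, Spry2, Dusp6, Rnf41 and Lrig1, with LFC from −1.37 to −0.27.

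Of 11 transcripts induced by ERK activity, 4 were called lower and none higher, with a median LFC of −0.30, where 10.1% and 9.20% of all genes were called. Egr1, an immediate early transcription factor, was 11.8 ± 2.90 RPKM in germ-free mice against 3.30 ± 1.36 RPKM in humanized mice (LFC = −1.84, SE 0.27, FDR = 1.73e-09), without overlap. Fos, the partner of JUN in AP-1, was 42.0 ± 10.6 and 19.6 ± 10.4 RPKM (LFC = −1.10, SE 0.30, FDR = 0.00171), with overlap. Phlda1, a growth factor response gene, was 10.6 ± 2.67 and 6.87 ± 1.07 RPKM (LFC = −0.63, SE 0.16, FDR = 0.00224), with overlap. Myc, also named after its value was seen, was the fourth (LFC = −0.41, FDR = 0.00308). Junb, named after its value was seen, was the 1 gene of the list with an LFC above 0 (0.28, FDR = 0.139). Several of these transcripts are also expressed outside the epithelium, where the smooth muscle, fibroblast and enteric neuron markers were lower as given above, and the part of those cells in these lists was not tested.

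**Figure D5:**
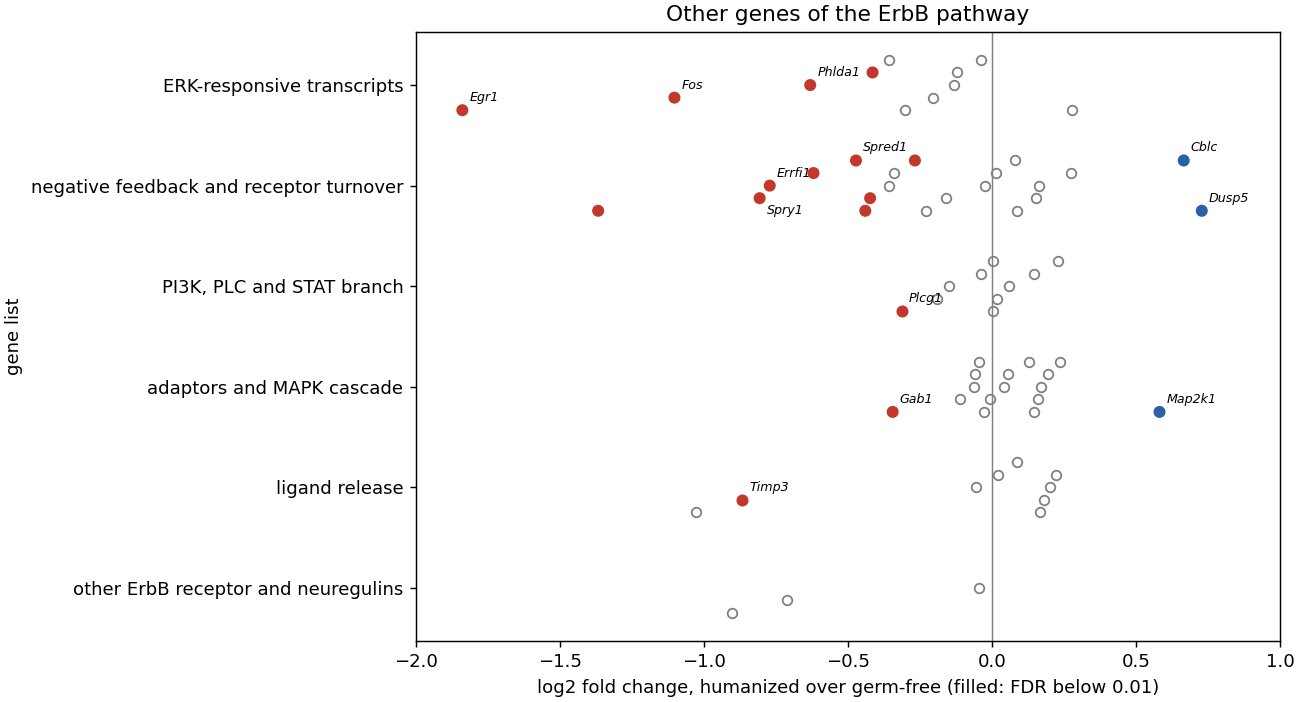
Log2 fold change of humanized over germ-free mice for the 70 pathway genes tested beside the members, 1 point per gene in rows by role, filled where the FDR was below 0.01. Filled points are mainly on the left in the feedback (8 lower, 2 higher) and ERK-responsive (4 lower) rows.

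The genes whose level followed Hbegf most closely over the 11 mice, by the smallest root mean square difference of centred log2 CPM (counts scaled to library size), were Fos (0.317), Egr1 (0.338) and Cspg4 (0.341), a proteoglycan of pericytes and smooth muscle (LFC = −1.41, SE 0.20, FDR = 1.55e-08). For Areg they were Trim15 (0.246), Fa2h (0.261) and Abhd6 (0.265). Fa2h, a fatty acid hydroxylase, was 37.0 ± 5.87 RPKM in germ-free mice against 70.6 ± 16.3 RPKM in humanized mice (LFC = 0.93, SE 0.15, FDR = 2.41e-07). Trim15 had an LFC of 1.05 (FDR = 1.21e-04) and Abhd6 of 0.80 (FDR = 1.88e-08). This measure follows the difference between groups as well as the spread within them.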

How the data were processed

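Polyadenylated RNA of colonic tissue was sequenced as 101 bp paired-end reads. According to the submitters' processing notes, the authors used bcl2fastq 2.17.1.14, TopHat2 2.1.0, Bowtie2 2.2.3 and featureCounts (Subread 1.4.6-p5) on mm10, and they deposited raw counts per gene. Whether counting used strand is not given in the sources used here. From the deposited counts, genes were filtered with edgeR's filterByExpr at its defaults (minimum count 10), scaled by TMM and tested with edgeR 4.0.16 (exact test, R 4.3.3) over all 19863 genes kept, with Benjamini-Hochberg adjustment and a threshold of 0.01. SEs came from edgeR's quasi-likelihood fit. RPKM used the gene length deposited with the counts, which is 49.1% of the GENCODE M21 exon length for Hbegf and 132.9% for Tgfa.

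On simulated counts with 200 of 19863 genes changed 2-fold, the exact test found 159 with 2 false calls. Those counts were drawn from the kind of count model the test assumes, with fewer genes changed than were called here. They check the running of the code and give no error rate for these mice. Groups came from the labels, and no batch is labelled. The labels number each mouse separately, and p-values measure the spread between these mice. Within-group pairs of libraries differed by far more than counting noise (chi-square per gene 21.2 or more), so none was counted as a duplicate. With 5 against 6 mice the smallest exact permutation p is 0.00216.

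The members and the pathway and marker lists were chosen with earlier results of these data known. Named genes were all 10 members, up to 3 genes per pathway list and direction with the lowest FDR below 0.01, and the 3 genes nearest in pattern to Hbegf and to Areg. Genes named outside this rule are marked as named after their values were seen. Alternatives were the quasi-likelihood test, DESeq2 1.42.0, other scalings, filters and thresholds, a replicate block and leaving out each mouse. Of other marker lists, the 10 macrophage markers held 1 called higher and 1 lower, and none of 7 mast cell markers tested was called.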

Additional observations from a re-analysis of the deposited data

Results flagged for a closer look

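Hbegf in germ-free mouse 5 (21.3 RPKM, 3531 counts) lay far above the other germ-free mice, of which the next was 16.5 RPKM. On the log2 CPM scale (counts scaled to library size), on which the gap was measured, it was 0.802 of the group's range, past Dixon's limit for 5 samples. Over the 20 groups of member values examined, chance flags about 1 in 20. Without that mouse the Hbegf LFC was −1.50 (edgeR exact test, FDR = 7.66e-10).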

How the results depend on the processing

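Hbegf was called lower under all alternatives run (LFC −1.83 to −1.47), and Ereg under all but the quasi-likelihood fit with a replicate block. The count of members called higher was 0 under the quasi-likelihood test, total counts, epithelial marker scaling, no filter, an absolute LFC above 1 and the replicate block, and 0 to 1 when a mouse was left out. The count called lower was 2 for every mouse left out. Under the replicate block it was 1 (Ereg LFC −1.37, FDR = 0.0243), with 1012 genes called over the table and 10 of the pathway, the Areg FDR being 0.0519. Same-numbered mice shared only a number: the correlations of their deviations were −0.13 to 0.09 over 5 pairs, and 1 of 5 germ-free mice correlated best with its own number. With an absolute LFC above 1 required, 1678 genes and 3 pathway genes were called. Leaving out 1 mouse gave 2880 to 4411 genes and 14 to 21 pathway genes. The quasi-likelihood test called 2699 genes against 3826. Total counts gave 773 higher and 3609 lower, and epithelial scaling 548 and 3099, against 1827 and 1999, and pathway calls were 2 higher and 24 lower, and 2 and 22, against 3 and 15. Signs turned for uncalled members. Under total counts the LFC was −0.020 for Tgfa, −0.068 for Erbb3 and −0.12 for Erbb2. Scaled to epithelial markers it was −0.081 for Tgfa, −0.14 for Erbb3 and −0.19 for Erbb2. Leaving out 1 mouse gave Erbb3 an LFC of −0.0033 to 0.20 and Erbb2 of −0.048 to 0.13, the negative values without humanized mouse 5. The cause was not tested. Under GENCODE lengths, an alternative added after seeing the data, shares in germ-free mice were 17.8% for Ereg, 12.4% for Areg, 4.29% for Btc, 29.7% for Hbegf, 32.2% for Tgfa and 3.55% for Egf, and in humanized mice 9.73%, 27.4%, 4.68%, 11.5%, 43.0% and 3.44% in the same order.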
